A study of Drosophila melanogaster with 4 samples.

Results

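Arm 2L is the left arm of Drosophila melanogaster chromosome 2. The series-wide list of H4K20me1-enriched regions holds 5318 regions, of which 905 lie on 2L. The 844 described here are those that end at or before base 21011544, which leaves out the 2 Mb next to the centromere and the 61 regions there. The lists called for each ChIP replicate hold 1025 regions (replicate 1) and 851 regions (replicate 2) within the same limit. All groups are wild-type Oregon-R larvae of the third instar (L3), without a transgene, mutation or treatment. Nuclear chromatin was immunoprecipitated with the third lot of an antibody to H4K20me1 in 2 ChIP replicates, each with its own input (2 inputs), and sequenced. The labels give neither the sex of the larvae nor the tissues in the homogenate, and it is not stated there if each replicate is its own collection of larvae. A region is therefore an average over the cells of the larval tissue, and more marked cells cannot be told apart from more mark per cell. Positions are on FlyBase release 5, with base 1 at the telomere end. Regions are given by position alone, since no gene annotation of that release was used.

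H4K20me1 is histone H4 carrying a single methyl group on lysine 20. In Drosophila the mark is placed by the methyltransferase PR-Set7, and Suv4-20 can add further methyl groups to it. PR-Set7 and the mark vary through the cell cycle, and flies without PR-Set7 die late in larval development. The mark is known to form broad domains as well as short peaks, so the lengths and gaps of the regions along an arm are part of the measurement.

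The arm carried many short regions and fewer long ones, and the 146 regions of 10 kb or more held 57.5% of the enriched bases. The series-wide regions covered 5.52 Mb, or 26.3% of the 21.0 Mb analysed. Replicate 1 covered 24.7% and replicate 2 covered 22.3%, a mean of 23.5% ± 1.71 (SD, n = 2). Series-wide regions were 1001 to 85817 bp long with a median of 3192 bp. The 85 longest held 43.9% of the enriched bases, and the 110 longest held 50%. At the other end, 242 regions under 2 kb made up 28.7% of the regions and 6.33% of the bases. The 58 regions of 20 kb or more held 35.4% of the bases. Replicate 1 had 44 regions of that size and replicate 2 had 31, and some long series-wide domains were split in the replicate lists. The shortest region was 1302 bp in replicate 1 and 1304 bp in replicate 2, so regions of about 1 kb occur in the series-wide list alone.

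Replicate support went with length: every region of 10 kb or more was in both replicate lists, and most under 2 kb were not. Of the 844 regions, 541 overlapped a region in both replicates by at least 1 bp (64.1%, exact Clopper-Pearson 95% interval 60.8 to 67.3%). The share over all 5318 series-wide regions was 61.5%, so 2L was close to the series in this respect. Another 129 regions overlapped replicate 1 only (15.3%, against 17.1% over all sequences), 108 overlapped replicate 2 only (12.8%, against 13.2%) and 66 overlapped neither (7.82%, against 8.25%). The shares by length that follow are for 2L alone, so the rise is not shown to be particular to the arm. Under 2 kb, 30 of 242 regions were found in both (12.4%, 8.52 to 17.2%). Between 2 and 5 kb the count was 214 of 299 (71.6%, 66.1 to 76.6%), and between 5 and 10 kb it was 151 of 157 (96.2%, 91.9 to 98.6%). All 88 regions of 10 to 20 kb and all 58 of 20 kb or more were found in both (lower limits 95.9% and 93.8%). These intervals cover counting error over regions only, and a longer region meets another region more easily by position alone. The series-wide list combines these replicates, so overlap with them is not independent support. Its shortest region (1001 bp) is also under the shortest of either replicate list (1302 and 1304 bp).

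**Figure D1:**
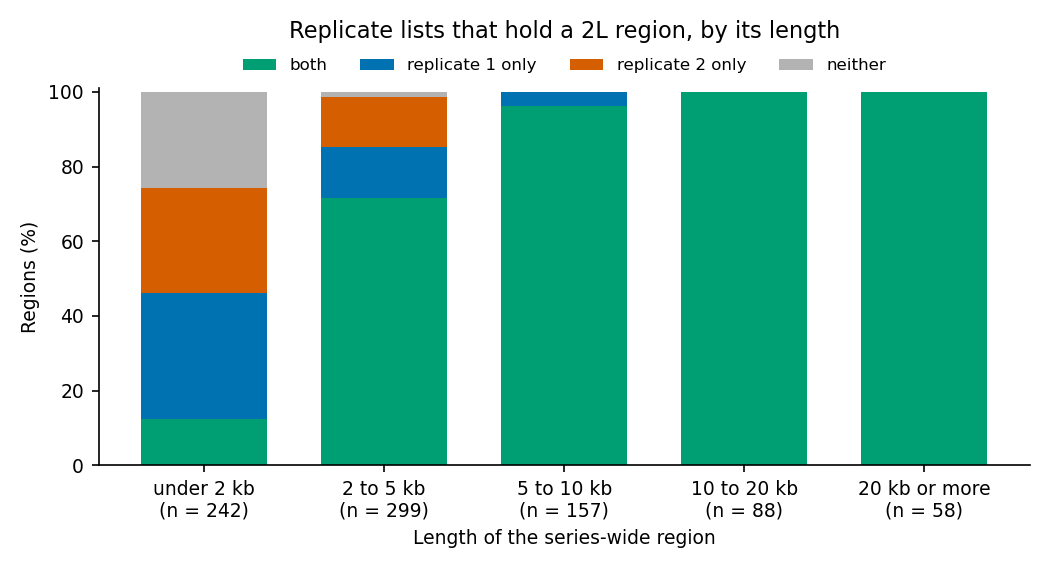
Share of the series-wide 2L regions (y axis, %) that overlap both replicate lists, 1 of them or neither, in 5 classes of region length (x axis, with the number of regions). The part found in both grows from 12.4% under 2 kb to 100% at 10 kb or more. The series-wide list combines these replicates, so the overlap is not independent support.

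Seen from the replicates, 720 of the 1025 replicate 1 regions were found in replicate 2 (70.2%, 67.3 to 73.0%). Of the 851 replicate 2 regions, 714 were found in replicate 1 (83.9%, 81.3 to 86.3%). Both counts are for 2L alone. Under 2 kb, 165 of 381 replicate 1 regions (43.3%) and 139 of 218 replicate 2 regions (63.8%) had a partner. The longest replicate 1 region without a partner was 5816 bp long. Replicate 2 had 1 region above 10 kb without a partner, described with the places where the replicates differ. By bases, 64.1% of the sequence enriched in either replicate was enriched in both (the Jaccard index). The series-wide list took in 99.2% of these shared bases, 62.1% of the bases marked by replicate 1 without replicate 2, and 74.99% of the bases marked by replicate 2 without replicate 1. Each replicate covered at least 50% of the length in 448 of the 844 series-wide regions (53.1%, 49.6 to 56.5%), against 52.2% over all sequences.

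For regions with a single partner in each replicate, the series-wide ends lay close to the replicate ends. Of the 541 regions found in both, 400 met a single replicate 1 region and 404 met a single replicate 2 region. The most divided region was split into 7 in replicate 1 and another into 8 in replicate 2. The median region had 91.3% of its length covered in replicate 1 and 89.1% in replicate 2. Exactly 1 region in each list faced the other for 311 regions, which give 622 ends. Split and merged regions are left out of the distances. The series-wide list combines these replicates, so its ends are not independent of theirs. The series-wide end lay a median of 205 bp from the replicate 1 end and 200 bp from the replicate 2 end. Ends of the replicates lay a median of 523 bp apart, with the middle 50% of distances between 172 and 1209 bp. The series-wide region reached further out than replicate 1 at 63.7% of the ends and further than replicate 2 at 74.4%.

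Longer regions had higher scores. The authors' score is used as a log2 value with an unknown offset in each list, so sizes are compared within a list and ranks between lists. In the series-wide list it ran from 0.10 to 2.07 with a median of 0.47. Spearman's rho between score and length was 0.79 across the 844 regions, 0.62 across the replicate 1 regions and 0.84 across those of replicate 2. The regions of a list share 1 library and are not replicates. How the score summarises a region is unknown, and a maximum or bound can rise with length by construction. Among the 211 lowest-scored regions 44 were found in both replicates (20.9%), and among the 211 highest-scored 206 (97.6%), both for 2L alone. The median length was 1703 bp in the lowest-scored and 10511 bp in the highest-scored, so score and length were not separated here. The replicates' scores of shared regions were moderately related, with a rho of 0.54 over the 720 replicate 1 regions and their partners of largest overlap. Several replicate 1 regions can share 1 partner and its score. Neighbouring regions along the arm showed little likeness in score (rho 0.09 over 843 neighbours) or in length (rho 0.04).

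**Figure D2:**
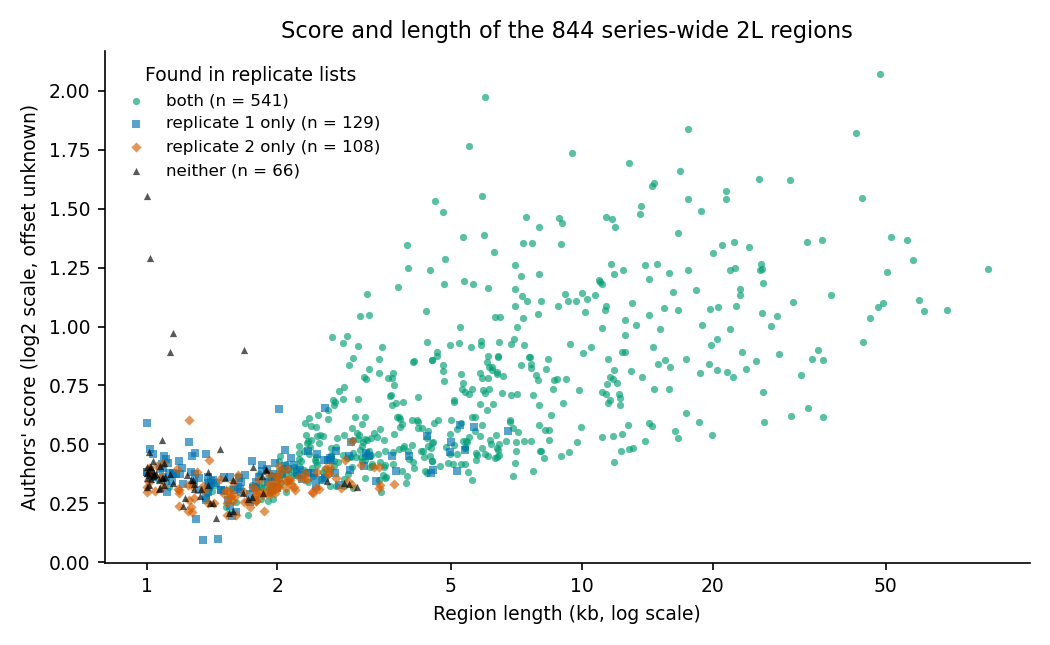
Authors' score (y axis, log2 scale with unknown offset) against length (x axis, kb on a log scale) for each of the 844 series-wide 2L regions, marked by the replicate lists that hold it. Regions of 10 kb or more are all found in both lists, and those found in neither are short (median 1151 bp) with scores up to 1.55.

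A few very short regions had high scores without replicate support. The highest-scored of the 66 regions found in neither replicate lay from 19147360 to 19148360, was 1001 bp long and scored 1.55, rank 14 of the 844. The next lay from 19673150 to 19674168 (1019 bp) and scored 1.29. These regions were picked after their values were seen. Their length is under the shortest region in either replicate list.

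The 12 longest domains found in both replicates were 46.0 to 85.8 kb long and held 12.4% of the enriched bases. The longest, scored 1.24, ran from 7891792 to 7977608 and was undivided in each replicate, covered over 99.9% in replicate 1 and 98.1% in replicate 2. The 100 kb window from 7.9 to 8.0 Mb that holds most of it was the most covered of the 210 such windows, at 87.4% in replicate 1 and 87.5% in replicate 2.

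The domain from 18319916 to 18389170 (69.3 kb, score 1.07) was covered over 98.8% in replicate 1 and 97.1% in replicate 2. It stood alone, with 167 kb to the previous series-wide region and 52.1 kb to the next. The domain from 1884416 to 1944168 (59.8 kb, score 1.11) also stood alone, 138 kb after the previous region, and was covered over 97.1% in replicate 1 and 99.1% in replicate 2. The domain from 11011568 to 11067614 (56.0 kb, score 1.37) was, like the longest, 1 region in each replicate, covered over 100% in replicate 1 and 96.3% in replicate 2. By cover, these 4 domains were nearly solid in both libraries. The domain of 69.3 kb was nevertheless 2 regions in each replicate, and that of 59.8 kb was 2 regions in replicate 1.

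Other long domains had less of their length covered in 1 of the replicates. The domain from 16601884 to 16663186 (61.3 kb, score 1.07) was 3 regions in each replicate and was covered over 96.7% in replicate 1 and 80.9% in replicate 2. The domain from 12454858 to 12512546 (57.7 kb, score 1.28) was 3 regions in replicate 1 and 4 in replicate 2, covered over 96.6% and 77.8%. Here the lower cover was in replicate 2. The domain from 18522374 to 18572796 (50.4 kb, score 1.23) had its lower cover in replicate 1, at 86.6% against 96.0% in replicate 2. The domain from 9490852 to 9540084 (49.2 kb, score 1.10) was covered over 88.4% in replicate 1 and 95.3% in replicate 2. The other 4 of the 12 were 46.0 to 51.5 kb long and were covered over 92.9% or more in each replicate. One of them, from 13008948 to 13060482 (51.5 kb, score 1.38), was followed by a gap of 102 kb.

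The highest-scored regions were mostly shorter than the longest domains. The 12 with the highest scores among those found in both replicates scored 1.60 to 2.07 and were 5.50 to 48.4 kb long, and 3 of them were under 10 kb. In 9 of the 12, each replicate had a single region. Only 1 region was also among the 12 longest, from 154890 to 203308 (48.4 kb, score 2.07). It held the highest score on the arm in each of the 3 lists, and was covered over 98.9% in replicate 1 and 97.2% in replicate 2. The region from 10837096 to 10843100 was 6.00 kb long and scored 1.98, rank 3 in both replicate lists, with 100% of its length covered in replicate 1 and 96.1% in replicate 2. The region from 6081754 to 6099356 (17.6 kb, score 1.84) ranked 8 in both lists. Ranks lay further apart for the region from 19492906 to 19498408 (5.50 kb, score 1.76), at 26 in replicate 1 and 6 in replicate 2.

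Some of these regions were neighbours. The region from 9176130 to 9218970 was 42.8 kb long and scored 1.82. After 2.84 kb it was followed by the region from 9221808 to 9247352, of 25.5 kb and score 1.62, and then by a gap of 141 kb. Each was undivided in each replicate, and 96.97% of the first and 97.1% of the second were covered in both. The region from 11794194 to 11807026 (12.8 kb, score 1.70) followed a gap of 266 kb, among the longest on the arm. Replicate ranks differed most for the region from 7214 to 21890 near the telomere (14.7 kb, score 1.61), which ranked 2 in replicate 1 and 76 in replicate 2. The middle segment of the arm held 7 of the 12 highest-scored regions, the telomere segment 4 and the centromere segment 1 (segments of 7.00 Mb each). The 12 longest domains were spread as 5, 4 and 3 over the same segments.

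Coverage was lower on the centromere side of the span analysed than elsewhere on the arm. In the centromere segment, replicate 1 covered 18.4% and replicate 2 covered 15.4% (mean 16.9% ± 2.09, SD, n = 2). The middle segment had 28.8% in replicate 1 and 23.6% in replicate 2 (mean 26.2% ± 3.63). The telomere segment had 27.0% and 27.9% (mean 27.5% ± 0.57). Both replicates were thus lower in the centromere segment than in either other segment, and the segment's values did not overlap those of the others. The segment also held fewer series-wide regions, 221 against 319 in the middle and 304 at the telomere end, while the median length differed little, at 3051, 3241 and 3293 bp. It had 12 regions of 20 kb or more, against 21 and 25.

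Within the arm the 21 windows of 1 Mb ran from 5.36% to 35.7% covered (replicate means), the median window being at 24.8%. The most covered window lay from 8 to 9 Mb, at 39.6% in replicate 1 and 31.9% in replicate 2. The first 1 Mb followed, at 35.3% and 34.6%, then 7 to 8 Mb, at 35.3% and 28.2%, and 13 to 14 Mb, at 30.7% and 27.6%. The least covered was 15 to 16 Mb, at 6.10% in replicate 1 and 4.62% in replicate 2, with 14 series-wide regions and none of 20 kb or more. Next came 17 to 18 Mb, at 10.4% and 6.74%, then 14 to 15 Mb, at 13.7% and 10.1%, and 11 to 12 Mb, at 18.4% and 16.2%. Of these 4 windows, 3 lay in the centromere segment, yet the window from 16 to 17 Mb among them reached 26.2% and 21.5% and the one from 18 to 19 Mb 28.7% and 26.5%. The centromere side thus had sparse windows between richer ones and no even slope.

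Windows differed in the number and length of the regions that made up their coverage. From 10 to 11 Mb there were 63 series-wide regions, none of 20 kb or more, and a mean coverage of 22.8% ± 4.68. From 9 to 10 Mb there were 31 regions, 5 of them of 20 kb or more, and 27.3% ± 2.95. This was higher in both replicates, at 29.4% and 25.2%, against 26.2% and 19.5% from 10 to 11 Mb. From 19 to 20 Mb there were 56 regions, 2 of them of 20 kb or more, with a median length of 2225 bp and 20.6% ± 0.45. Across the 21 windows, Spearman's rho between the number of regions and the mean coverage was 0.61, and between the replicates' coverage it was 0.86. Windows share the 2 libraries, and neighbours are not independent.

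**Figure D3:**
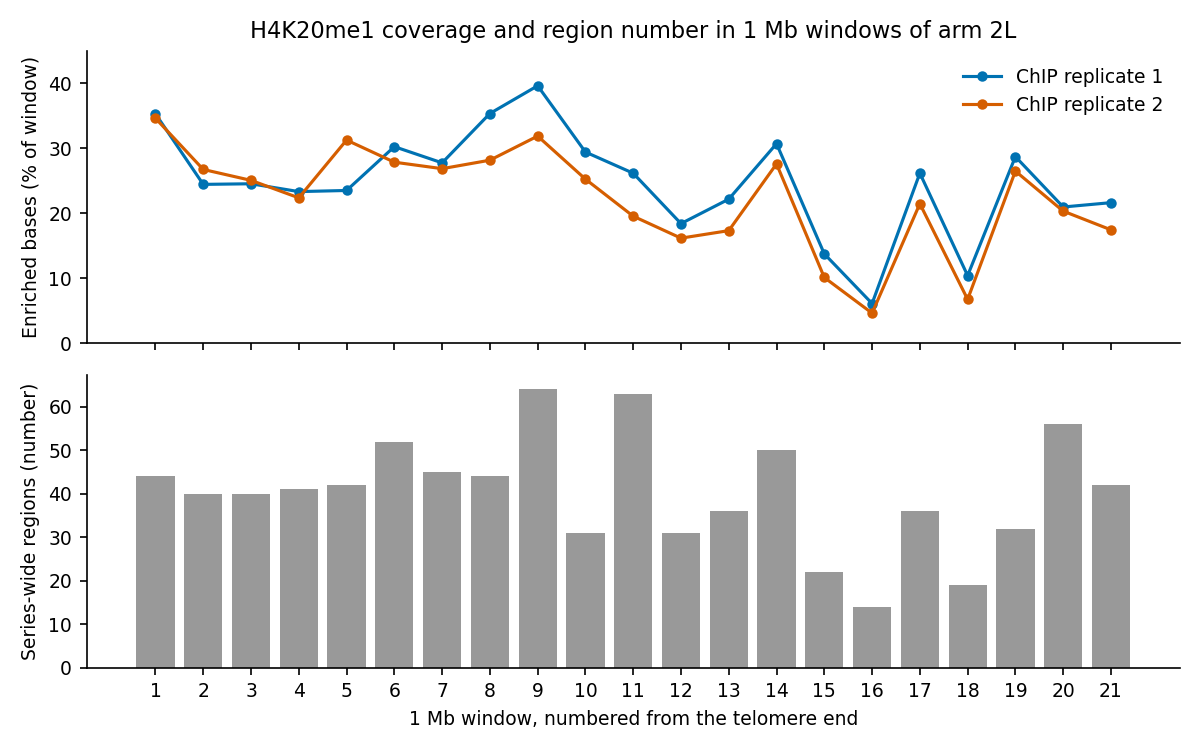
Enriched bases in each 1 Mb window of 2L (upper y axis, % of the window) for ChIP replicates 1 and 2, and number of series-wide regions whose midpoint lies in the window (lower y axis). Windows are numbered from the telomere end (x axis). Both replicates are lowest in window 16, at 6.10% and 4.62%, with 14 regions.

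Much of the sequence without a series-wide region lay in long gaps. A gap is sequence where no region was called, which does not show that the mark was absent, since no input signal or depth was used. All gaps together spanned 15.5 Mb. The series-wide list left 48 gaps of 100 kb or more on the arm, which together spanned 7.79 Mb or 37.1% of the analysed length. Within them replicate 1 had 1.48% of the bases enriched and replicate 2 had 0.18%, against 5.15% and 2.59% in the shorter gaps. The series-wide list took in 99.2% of the bases enriched in both replicates, so low values in its gaps are largely built in. Replicate regions that reach past a series-wide end also take a larger share of a short gap than of a long one. Replicate 2 had no enriched base in 34 of the 48, and replicate 1 had none in 7. In the centromere segment these gaps numbered 17 and filled 48.9% of the sequence. In the middle segment 17 filled 33.3%, and in the telomere segment 14 filled 29.0%.

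The longest gap, from 15762541 to 16245837, was 483 kb long, with 1.82% of it enriched in replicate 1 and none in replicate 2. It contains the longest run of 100 kb windows with no enriched base in either replicate, 3 windows from 15.9 to 16.2 Mb. The next, from 16913223 to 17371773 (459 kb), had 0.83% in replicate 1 and 0.06% in replicate 2. A gap from 14689609 to 14991097 (301 kb) came next, with 0.48% in replicate 1 and none in replicate 2. It began at the end of a region of 33.1 kb. Each of these 3 gaps begins or ends in 1 of the 3 least covered windows. The gap from 20093607 to 20311287 (218 kb) had no enriched base in either replicate. The other 4 of the 8 longest were 185 to 266 kb long. Replicate 1 marked 0.21% to 2.17% of each and replicate 2 marked none. The length of a gap had little relation to the mean length of the regions beside it (rho 0.07 over 843 gaps).

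At the short end, 268 of the 843 gaps were under 1 kb (31.8%). Joined across these, the regions formed 576 chains, of which 398 were single regions and 178 held 2 to 5 regions. The chains of more than 1 region took in 446 of the 844 regions. Among the 6 chains of 5 regions, the longest ran from 13564340 to 13625722 (61.4 kb, 97.4% of it enriched in the series-wide list). It was covered over 86.8% in replicate 1 and 72.7% in replicate 2. The chain from 9125732 to 9163626 (37.9 kb) was covered over 94.9% in replicate 1 and 59.8% in replicate 2. The chains from 10239108 to 10268126 (29.0 kb) and from 7782300 to 7810214 (27.9 kb) had 94.4% and 92.3% in replicate 1 and 57.6% and 62.8% in replicate 2. All 4 had less cover in replicate 2.

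The replicates differed in direction along the arm. Replicate 1 had the higher coverage in 18 of the 21 windows of 1 Mb, and replicate 2 in the windows from 1 to 2, 2 to 3 and 4 to 5 Mb. The largest differences were from 4 to 5 Mb, at 23.5% in replicate 1 and 31.3% in replicate 2, and from 8 to 9 and 7 to 8 Mb, where replicate 1 was higher by 7.74 and 7.18 points. The 8 longest series-wide regions that were not found in both replicates were 4.55 to 6.77 kb long, and all 8 were found in replicate 1 only. The longest, from 9151182 to 9157946, scored 0.56 and was covered over 99.6% in replicate 1. With 1 library on each side, such differences compare 2 libraries.

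Most of the difference from 4 to 5 Mb came from 2 neighbouring windows of 100 kb. From 4.5 to 4.6 Mb replicate 1 covered 31.0% and replicate 2 covered 71.6%, the largest difference among the 210 windows, and from 4.4 to 4.5 Mb they covered 10.7% and 36.5%. Between 4489250 and 4529993 replicate 2 had 5 regions in a row, 2585 to 15514 bp long, over 90.4% of the 40.7 kb, and replicate 1 had 0 enriched bases. The series-wide list kept 29.2% of this stretch as 5 regions. The reverse case with the most bases lay between 13499151 and 13541365, where 10 regions in a row of replicate 1 (24.3 kb in all) overlapped no replicate 2 region. From 10.2 to 10.3 Mb replicate 1 covered 82.0% and replicate 2 covered 52.0%. These stretches were picked for their difference. No input signal was used here, so they were not compared with input.

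Arm 2L was set beside 3L, 3R and X, each without the 2 Mb next to its centromere. Its covered share of 24.7% in replicate 1 and 22.3% in replicate 2 compares with 27.99% and 24.8% on 3L, 25.4% and 24.9% on 3R, and 23.2% and 21.2% on X. The difference of 2L from 3L was -2.91 points ± 0.51 (SD of the 2 replicate differences), from 3R -1.67 ± 1.38, and from X 1.32 ± 0.35. Its direction was the same in both replicates for each arm. The difference from X was 0.073 points in the series-wide list and 0.14 points with the upper-scoring 50% of each replicate list, so its size depended on the list. The two-sided exact sign-flip permutation test gives p = 0.5 for any 2 differences of the same sign, as it did for all 3 arms, and so tells nothing about them. The differences are given as values. The replicates agreed on 2L to a Jaccard index of 64.1%, against 65.2% on 3L, 68.2% on 3R and 57.9% on X.

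By segment, 2L had more cover than 3R and X at the telomere end and in the middle in both replicates, and less than all 3 arms on the centromere side. In replicate 1 its centromere segment had 18.4%, against 28.9% on 3L, 26.9% on 3R and 23.2% on X. In replicate 2 it had 15.4%, against 24.9%, 25.4% and 20.4%. No other segment of the 4 arms had less in either replicate. The segment was singled out after its values were seen, and the difference was not tested. Gaps of 100 kb or more filled 37.1% of 2L in the series-wide list, against 25.9% of 3L, 32.8% of 3R and 31.3% of X. In the replicate 1 list the order was different, at 28.3% on 2L against 19.5%, 30.1% and 30.8%, and in replicate 2 it was 40.1% against 27.5%, 35.2% and 35.1%. The density of regions of 20 kb or more was 2.76 per Mb on 2L, against 3.06 on 3L, 2.82 on 3R and 1.91 on X. The ratio of replicate 1 to replicate 2 coverage was 0.97 in the telomere segment of 2L, against 1.00 on 3L, 0.97 on 3R and 0.96 on X. In the middle and centromere segments of 2L it was 1.22 and 1.19, against 1.03 to 1.24 on the other arms, so the lean toward replicate 1 away from the telomere was also seen there.

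**Figure D4:**
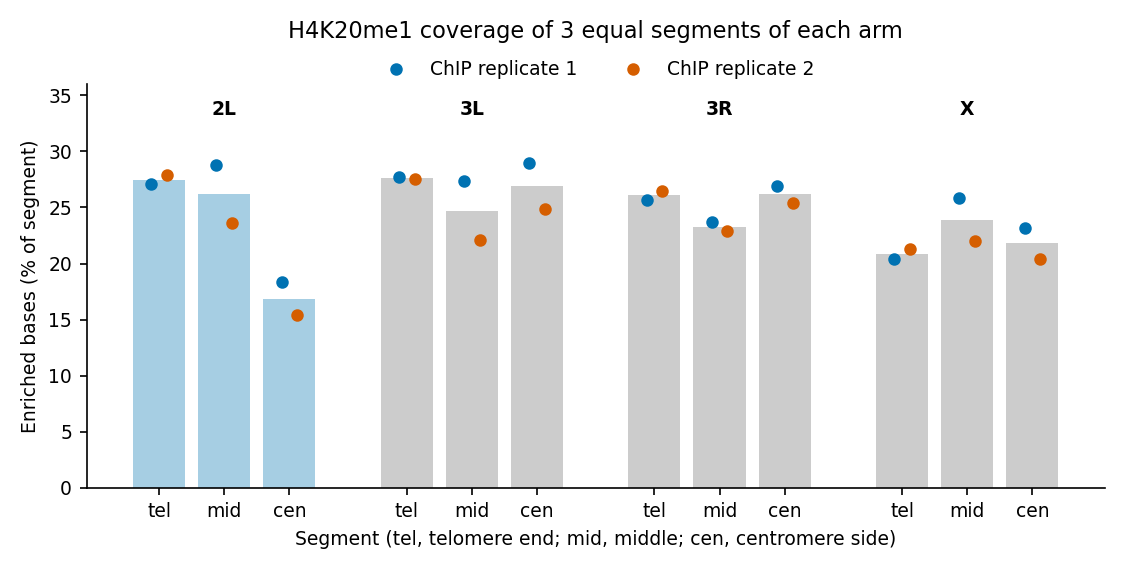
Enriched bases (y axis, % of the segment) in 3 segments of equal length on 2L, 3L, 3R and X, from the telomere end to the centromere side (x axis). Bars are means and points the 2 ChIP replicates. The centromere segment of 2L is the lowest bar, with points at 18.4% and 15.4%.

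The limit of 2 Mb next to the centromere passes through marked sequence. The last region inside it lay from 20965500 to 20977676 and was 12.2 kb long with a score of 0.72. The one before it, from 20895698 to 20918832, had 23.1 kb and a score of 1.13. The first region outside, from 20980584 to 21019882, crosses the line and had 39.3 kb and a score of 0.75. The second outside, from 21023818 to 21042172, had 18.4 kb and a score of 1.16. All 4 were found in both replicates. Leaving out the region that crosses the line and the 2 replicate regions that do so lowers the coverage of the last bases of the span.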

How the data were processed

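H4K20me1 ChIP-seq regions of 2 ChIP replicates were used. Reads were aligned with Bowtie 0.12.7, per the submitters' processing notes, to FlyBase release 5, per the file headers. The deposited score of each region is the authors' own. Its definition, the region caller, the threshold and the way the series-wide list combines the replicates are not given in the sources used. The score was treated as log2 because, after subtracting a recurring score, 2 raised to it was a ratio of whole numbers (denominator up to 2000, relative tolerance 1e-11) for 78.9% of the 2L regions series-wide, 95.4% in replicate 1 and 95.7% in replicate 2, against at most 1.07% with other bases. No read counts, depth or input signal were used, so depth is unknown.

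Coordinates are 1-based. Overlap needs at least 1 bp, coverage is enriched bases over the length in the header less 2 Mb, and windows are full windows. Partners for scores are the regions of largest overlap. The interval code was tested on simulated lists. Arms were compared within a replicate by an exact sign-flip permutation test. Its p is the share of sign assignments whose mean difference is at least as large in size as the observed one. With 2 differences it cannot go below 0.5, whatever their spread. Regions named are the 12 longest and 12 highest-scored found in both replicates, the 8 longest not in both, the 8 longest gaps, the 4 most and 4 least covered windows, the 3 with the largest replicate difference and the 4 chains with the most regions. Members and rules were chosen with earlier results of these data known. Genes were not assigned and no sequence was read, since the gene table at hand is on release 6. Python 3.11.15, pandas 2.3.3, NumPy 2.4.6 and SciPy 1.17.1 were used.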

Additional observations from a re-analysis of the deposited data

How the results depend on the processing

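Leaving out each replicate was added for the support count and for the distances between ends after the data were seen. Of 39 recomputed values, 22 were classed as the same, 17 as moved, and none changed sign. Counts, covered shares, Jaccard indices and end distances cannot be negative, so only arm differences and rank correlations could change sign. The support count without 1 replicate cannot fall. Counts were the same if they changed by at most 1.5 times. Covered shares, arm differences and end distances were the same if they moved by less than the SD between the replicates. The Jaccard index and the rank correlations were given no spread, so any change in them counted as moved. Leaving 1 replicate out always shifts a mean of 2 by less than their SD. For the covered share and the arm differences, that outcome was fixed in advance. The upper-scoring 50% of each list left 243 regions found in both replicates, a covered share of 17.6%, a Jaccard index of 61.7% and differences of -2.35 points from 3L and 0.14 points from X. The series-wide list gave a covered share of 26.3% and a difference of 0.073 points from X, against 1.32 from the replicates, and the cause was not tested. Whole arms gave a Jaccard index of 62.6% and differences of -2.02 points from 3L and 2.00 points from X. Regions within 1 kb joined gave a Jaccard index of 65.4%. With at least 50% of a region covered in each replicate, the support count was 448. The rank correlation of score and length was 0.62 in replicate 1 and 0.84 in replicate 2, that of replicate scores was 0.80 with reciprocal overlap of at least 50% (390 pairs, which that condition makes alike in length), and that of window coverage was 0.93 in windows of 250 kb and 0.95 in windows of 100 kb. Replicate 2 alone had 31 regions of 20 kb or more. Without 1 replicate, the difference from 3R ran from -2.64 to -0.70 points. No paired analysis was possible because there is a single ChIP group, with no second group of region lists to pair it with. The arms were paired within each replicate, and the exact test used there cannot pass 0.05 with 2 libraries.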
